A study of Mus musculus with 16 samples.

Results

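A set of 9 genes of the Hippo pathway and of the YAP target programme were followed in whole livers of newborn mice: Ccn1, Ccn2, Ankrd1, Ajuba, Amotl2, Lats2, Yap1, Wwtr1 and Tead1. They were taken by name, and these 9 were all found among the 18820 genes that the arrays measured with a probe set of a single gene symbol. Where a gene had several such probe sets the one with the highest mean over the 16 arrays stood for it, which applied to Tead1 alone. Livers of 16 male mice aged 7 days on a mixed C57/BL6 - SV129Ola background were measured, 1 array per mouse and 4 mice per genotype. The livers called IKKβ triple KO here are labelled TRAF2/Casp-8/IKKbetaLPC-KO and carried floxed alleles of Traf2, Caspase-8 and Ikkβ deleted by alfp-Cre. Those called RIPK3 triple KO are labelled TRAF2/Casp-8LPC-KO/RIPK3-/- and combined the floxed Traf2 and Caspase-8 alleles and alfp-Cre with a Ripk3 deletion in the whole body. Those called TRAF2/Casp8 KO are labelled TRAF2/Casp-8LPC-KO and carried the floxed Traf2 and Caspase-8 alleles with alfp-Cre. WT mice were littermates with the floxed alleles and without Cre. The Cre transgene acts in liver parenchymal cells (LPC), so the other cells of the liver kept Traf2, Caspase-8 and Ikkβ in all groups, and all 3 groups with Cre share the Traf2 and Caspase-8 deletions.

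The Hippo pathway is a kinase cascade that restrains organ growth. The kinases MST1 and MST2 activate LATS1 and LATS2, which phosphorylate the co-activators YAP (Yap1) and TAZ (Wwtr1) and keep them out of the nucleus. Unphosphorylated YAP and TAZ enter the nucleus, bind TEAD factors and switch on target genes such as Ccn1 and Ccn2, and in the liver the pathway is known for its control of organ size, bile duct fate and regeneration. YAP and TAZ are regulated mainly as proteins, by phosphorylation, location and stability, which an RNA array does not measure.

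The values are log2 signals, so a difference of 1 is a doubling of signal, and levels were compared within a probe set only. Casp8 lay at 8.64 to 9.11 in IKKβ triple KO, 8.50 to 8.81 in RIPK3 triple KO and 8.85 to 9.03 in TRAF2/Casp8 KO livers, against 9.76 to 10.07 in WT. Ripk3 read 4.07 to 4.40 where it was deleted, against 5.62 to 6.42 in the other 12 livers. Ikbkb lay at 7.07 to 7.30 in IKKβ triple KO livers, against 7.50 to 8.06 in the others. Traf2 went against the labels, at 6.87 to 7.53 in the 12 livers labelled as deleted against 6.21 to 6.40 in WT, and whether its probe set lies in the deleted part is not given in the sources used here. Genotypes below are therefore the labelled ones. Array medians ranged over 4.90 to 5.05, and WT replicate 1 stood apart on the second principal component and had the lowest array weight, 0.461. As read from the array names, IKKβ triple KO and WT arrays were in plate column 5 and RIPK3 triple KO and TRAF2/Casp8 KO arrays in column 7, with RIPK3 triple KO and WT arrays in rows A to D and IKKβ triple KO and TRAF2/Casp8 KO arrays in rows E to H, so plate position and genotype cannot be told apart. The first principal component (15.6% of variance) split the arrays by plate column. Arrays of column 5 lay at −28.7 to −12.3 on it and those of column 7 at 4.91 to 35.2.

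TEAD factors, the DNA-binding partners of YAP and TAZ, recognise the letters GGAATG, read as CATTCC on the other strand. A promoter window from 250 bases before to 50 bases after the start site was at hand for 7 of the 9 genes (RefSeq, build GRCm38.p6), and all 7 held the motif on one strand or the other, in 8 of their 9 windows. It was present in a window of 16.6% of 27025 genes and in 14.7% of 32851 windows of that length. The AP-1 motif TGANTCA, bound by a factor that often acts beside TEAD, was in 0 of the 9 windows, against 7.81% of all windows. The 250 bases before the start site are shown for the genes whose levels differed most between genotypes and that had a window: Ccn1 (chr3:145649986-145650235, minus strand), Ankrd1 (chr19:36119845-36120094, minus strand) and Ajuba (chr14:54577662-54577911, minus strand). They are given 5′ to 3′ on the strand of the gene, with every TEAD motif in capitals.
Ccn1: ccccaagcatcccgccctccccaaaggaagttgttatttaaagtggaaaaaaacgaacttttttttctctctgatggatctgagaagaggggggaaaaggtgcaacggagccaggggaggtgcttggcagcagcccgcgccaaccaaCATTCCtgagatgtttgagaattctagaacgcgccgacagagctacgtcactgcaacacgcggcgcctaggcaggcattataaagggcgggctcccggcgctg
Ankrd1: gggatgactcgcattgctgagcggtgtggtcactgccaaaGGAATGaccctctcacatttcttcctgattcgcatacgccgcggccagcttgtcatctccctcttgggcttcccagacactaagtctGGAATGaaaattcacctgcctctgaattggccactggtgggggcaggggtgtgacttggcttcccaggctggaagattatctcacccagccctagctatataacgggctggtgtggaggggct
Ajuba: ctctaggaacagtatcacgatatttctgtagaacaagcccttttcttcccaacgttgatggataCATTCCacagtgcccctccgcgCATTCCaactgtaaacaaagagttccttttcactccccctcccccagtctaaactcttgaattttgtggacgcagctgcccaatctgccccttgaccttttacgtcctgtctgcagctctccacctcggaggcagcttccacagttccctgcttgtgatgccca
Counted from the start site to the first base of the motif, Ccn1 had 1 motif at −103, Ankrd1 had 2 at −210 and −123, and Ajuba had 2 at −186 and −164. Among the others, the motif lay at −65 in Amotl2, at −141 in Yap1, at −136 and −170 in the 2 overlapping windows of Wwtr1 and at 4 in 1 of the 2 windows of Lats2. A match of letters is a description of the sequence and does not show that a factor bound there.

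Across the 4 genotypes Ajuba and the classical target genes Ccn1, Ankrd1 and Ccn2 varied most, Yap1, Wwtr1, Lats2 and Tead1 varied least, and Amotl2 lay in between. The group means spanned 1.39 for Ajuba, 1.13 for Ccn1, 0.85 for Ankrd1 and 0.80 for Ccn2 on the log2 scale, but 0.14 for Yap1, 0.17 for Wwtr1, 0.21 for Lats2, 0.31 for Tead1 and 0.42 for Amotl2. The moderated F test over the 4 genotypes (limma, with Benjamini-Hochberg adjustment over all 35556 probe sets) passed the 0.05 threshold for 2 of the 9, Ajuba (adjusted p = 0.00397) and Ccn1 (adjusted p = 0.0157), against 2.83% of all probe sets. Without TRAF2/Casp8 KO replicate 3 that count was 1. Over leaving out each array it was 1 to 3.

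**Figure D1:**
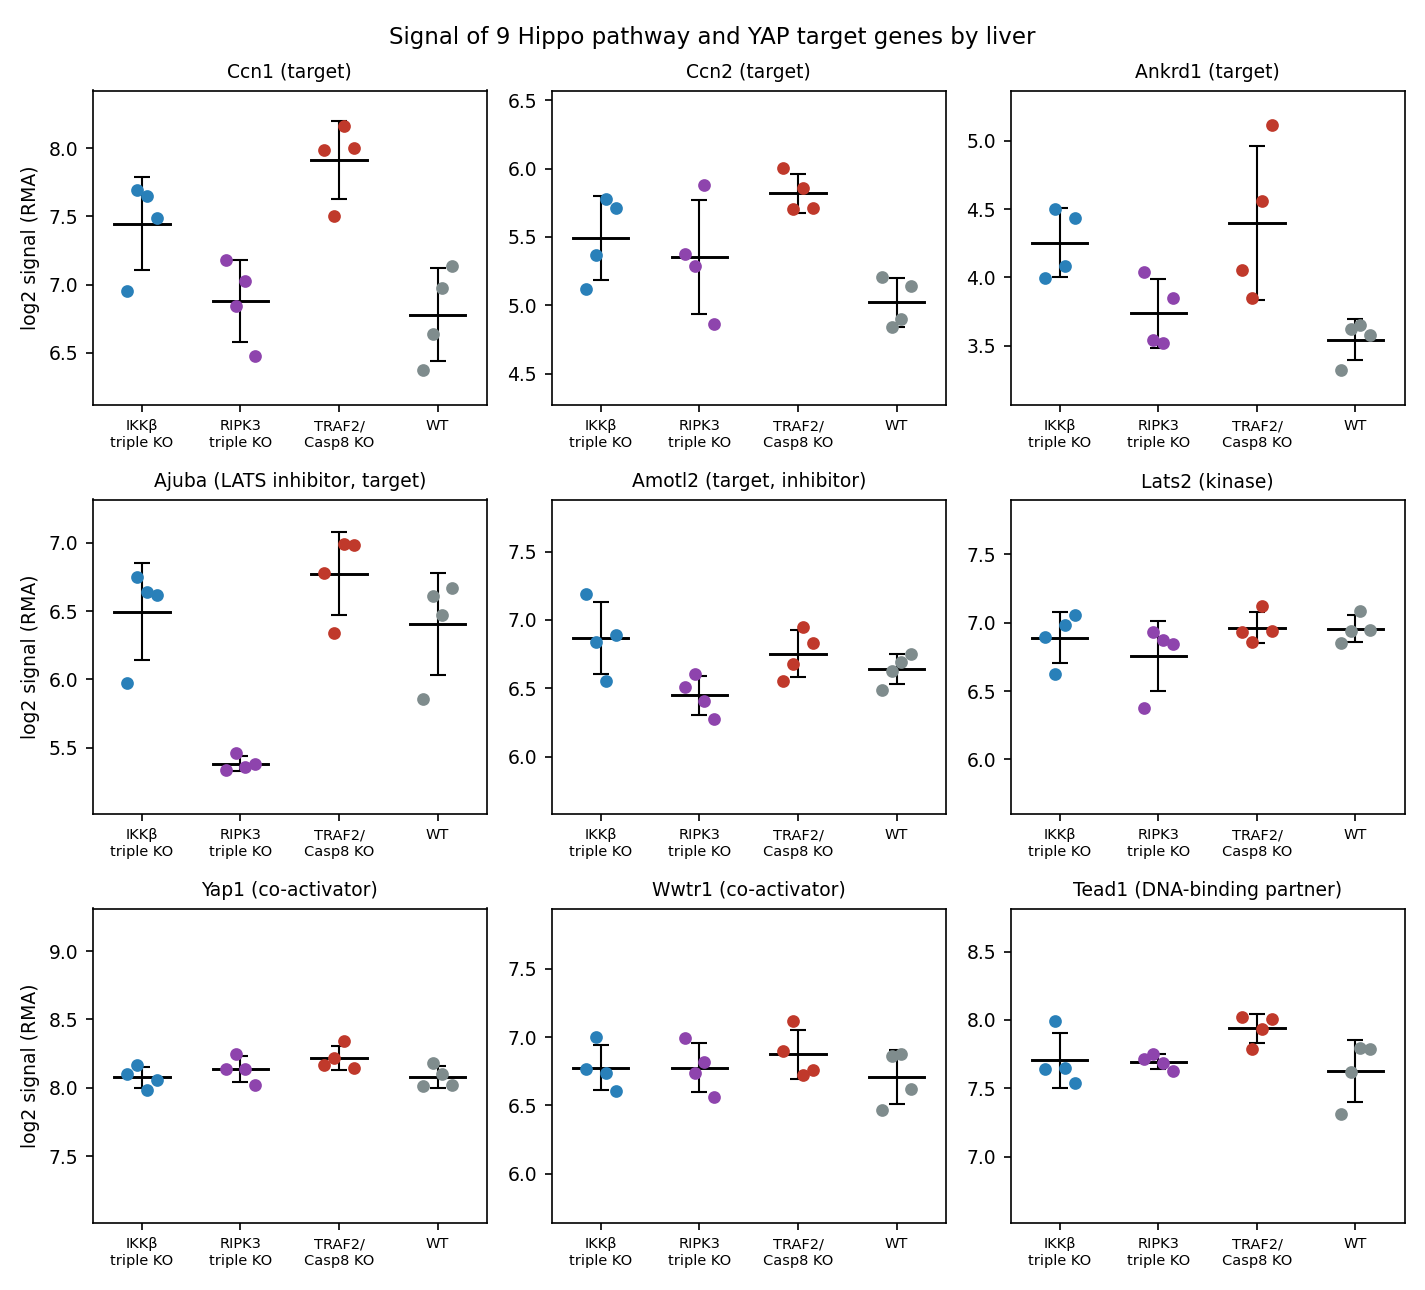
Log2 signal of the 9 genes in each liver, with the group in columns (IKKβ triple KO, RIPK3 triple KO, TRAF2/Casp8 KO, WT); each point is 1 liver, the bar is the mean and the whiskers are 1 SD (n = 4). Every panel spans the same range of log2 units: Ajuba lies at 5.34 to 5.46 in RIPK3 triple KO livers and at 5.86 to 6.99 in the other 12, and Ccn1 lies at 7.50 to 8.16 in TRAF2/Casp8 KO against 6.38 to 7.13 in WT livers.

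Ccn1 encodes CYR61, a secreted matrix-associated protein and a direct target of YAP. Its signal was 6.96, 7.69, 7.65 and 7.49 in IKKβ triple KO livers, 7.18, 6.85, 7.03 and 6.48 in RIPK3 triple KO livers and 7.99, 7.50, 8.16 and 8.00 in TRAF2/Casp8 KO livers, against 6.38, 6.64, 6.97 and 7.13 in WT livers. All 4 TRAF2/Casp8 KO livers were above all 4 WT livers and above all 4 RIPK3 triple KO livers, whereas RIPK3 triple KO and WT livers overlapped over most of their ranges. Ccn1 rose 2.19-fold in TRAF2/Casp8 KO over WT livers (log2 1.13 ± 0.21 SE, 95% interval 0.69 to 1.58, n = 4 each, limma adjusted p = 0.0085). The call held with each array left out (adjusted p up to 0.0339) and under each of 9 other settings (up to 0.0323). Of these settings, the mean of a gene's probe sets could not change Ccn1, which had 1 probe set.

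With RIPK3 also absent, Ccn1 averaged 6.88 ± 0.30 in RIPK3 triple KO livers against 7.91 ± 0.29 in TRAF2/Casp8 KO livers (SD, n = 4 each), a log2 difference of −1.03 ± 0.21 SE. The groups did not overlap, but the adjusted p of 0.0605 missed the threshold. It passed without IKKβ triple KO replicate 1, TRAF2/Casp8 KO replicate 2 or WT replicate 1 (0.0355 at the lowest), and it was 0.197 at the highest with another array left out. Against WT livers, RIPK3 triple KO livers differed by 0.10 (95% interval −0.34 to 0.55, adjusted p = 0.886). With IKKβ also absent, the mean of 7.45 ± 0.34 lay between those of TRAF2/Casp8 KO and WT livers. IKKβ triple KO differed from TRAF2/Casp8 KO livers by −0.47 (interval −0.91 to −0.02, adjusted p = 0.506) and from WT livers by 0.67 (interval 0.22 to 1.11, adjusted p = 0.630). In the order TRAF2/Casp8 KO, IKKβ triple KO, RIPK3 triple KO, WT, no pair of neighbours passed the test.

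Ccn2 encodes CTGF, the close relative of CYR61 that promotes matrix deposition and is the other classical YAP target. It read 5.12, 5.36, 5.78 and 5.71 in IKKβ triple KO livers, 5.37, 5.29, 5.88 and 4.87 in RIPK3 triple KO livers and 6.0, 5.70, 5.86 and 5.71 in TRAF2/Casp8 KO livers, against 5.21, 4.84, 4.90 and 5.14 in WT livers. TRAF2/Casp8 KO livers were tightly grouped above WT, and both triple KO groups spread over the gap between them. Ccn2 rose 1.74-fold in TRAF2/Casp8 KO over WT livers (log2 0.80 ± 0.19 SE, interval 0.40 to 1.20, adjusted p = 0.0392). This call was lost without any TRAF2/Casp8 KO array, without WT replicate 2, 3 or 4, or without RIPK3 triple KO replicate 1 or 2 (adjusted p up to 0.124), and with the replicate number as a block (adjusted p = 0.0573). RIPK3 triple KO livers differed from TRAF2/Casp8 KO livers by −0.47 (adjusted p = 0.417) and from WT livers by 0.33 (adjusted p = 0.470). IKKβ triple KO livers differed from WT livers by 0.47 (adjusted p = 0.754). The order of means was the same as for Ccn1, and here too no neighbours differed past the threshold.

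Ankrd1, which encodes the ankyrin repeat protein CARP and is often read with Ccn1 and Ccn2 as a YAP target, followed the same order of means. Its signal was 3.99, 4.50, 4.09 and 4.43 in IKKβ triple KO livers, 4.04, 3.54, 3.52 and 3.85 in RIPK3 triple KO livers and 4.06, 3.85, 4.56 and 5.11 in TRAF2/Casp8 KO livers, against 3.32, 3.62, 3.65 and 3.58 in WT livers. Every IKKβ triple KO and TRAF2/Casp8 KO liver was above every WT liver, while TRAF2/Casp8 KO livers spread over 1.26 log2 units. The Ankrd1 signal was dim, with its mean at percentile 37.6 of all probe sets. All its group means lay below the array medians of 4.90 to 5.05. The difference of 0.85 ± 0.22 SE between TRAF2/Casp8 KO and WT livers missed the threshold (adjusted p = 0.0645). It passed without TRAF2/Casp8 KO replicate 2, the lowest of its group (adjusted p = 0.0210), and reached an adjusted p of 0.164 with another array left out. The difference of IKKβ triple KO from WT livers was 0.71 ± 0.22 SE (adjusted p = 0.630). RIPK3 triple KO livers differed from TRAF2/Casp8 KO livers by −0.66 (adjusted p = 0.327) and from WT livers by 0.19 (adjusted p = 0.766).

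Ajuba, a LIM-domain scaffold of cell junctions that binds LATS kinases and lowers their activity, and itself counted among YAP target genes, had a pattern of its own. It read 5.97, 6.75, 6.64 and 6.62 in IKKβ triple KO livers, 5.34, 5.46, 5.36 and 5.38 in RIPK3 triple KO livers and 6.78, 6.34, 6.99 and 6.98 in TRAF2/Casp8 KO livers, against 5.86, 6.61, 6.47 and 6.67 in WT livers. All 4 RIPK3 triple KO livers lay below the other 12 and within 0.12 log2 units of each other, and the other 3 genotypes overlapped. Ajuba fell 2.62-fold in RIPK3 triple KO relative to TRAF2/Casp8 KO livers (log2 −1.39 ± 0.20 SE, interval −1.81 to −0.97, adjusted p = 0.00737). It fell 2.03-fold in RIPK3 triple KO relative to WT livers (log2 −1.02 ± 0.20 SE, adjusted p = 0.0138) and was 2.16-fold higher in IKKβ triple KO than in RIPK3 triple KO livers (log2 1.11 ± 0.20 SE, adjusted p = 0.0119). The calls against TRAF2/Casp8 KO and IKKβ triple KO livers held with each array left out (adjusted p up to 0.0353 and 0.0444), and the call against WT livers was lost without WT replicate 4 (adjusted p = 0.0501).

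Among genotypes with Ripk3 intact, Ajuba gave no call. TRAF2/Casp8 KO livers differed from WT livers by 0.37 (interval −0.05 to 0.79, adjusted p = 0.441) and IKKβ triple KO livers from WT livers by 0.09 (interval −0.33 to 0.51, adjusted p = 0.976). In the order TRAF2/Casp8 KO, IKKβ triple KO, WT, RIPK3 triple KO, only the last pair of neighbours differed past the threshold. The plot of Ccn1 against Ajuba shows the groups apart in different ways: RIPK3 triple KO livers shared the Ccn1 range of WT livers but not their Ajuba range.

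**Figure D2:**
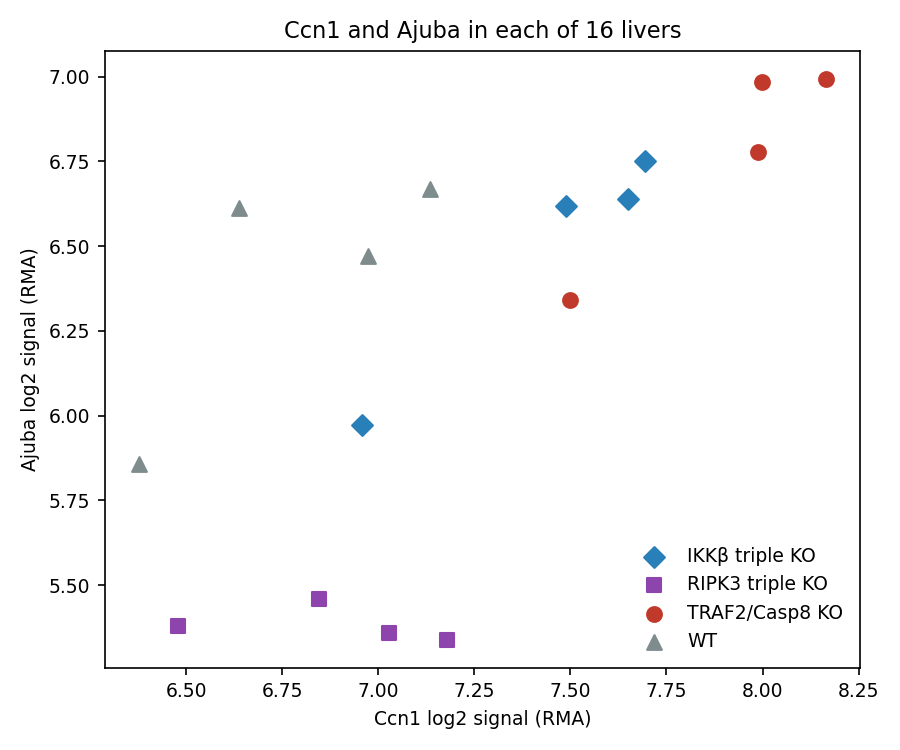
Log2 signal of Ccn1 (horizontal axis) and Ajuba (vertical axis) in each of the 16 livers, with 1 symbol per genotype. RIPK3 triple KO livers have Ccn1 at 6.48 to 7.18, near the 6.38 to 7.13 of WT livers, and Ajuba at 5.34 to 5.46, below the 5.86 to 6.67 of WT livers; TRAF2/Casp8 KO livers have Ccn1 at 7.50 to 8.16 and Ajuba at 6.34 to 6.99.

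Ripk3 and Ajuba are both on chromosome 14, as is Lats2. In the RefSeq gene order 54 protein-coding genes lie between Ajuba and Ripk3, and 46 of them were measured. Of these 46, 1 passed between RIPK3 triple KO and TRAF2/Casp8 KO livers, against 0.329% of all 18820 genes, and 2 between RIPK3 triple KO and WT livers, against 3.11%. A further 1 passed between IKKβ triple KO and RIPK3 triple KO livers, against 2.00%, and 1 between TRAF2/Casp8 KO and WT livers, against 3.31%. Before adjustment 6, 12, 12 and 10 of the 46 were under 0.05 in these comparisons, and 8 and 3 where IKKβ triple KO livers were set against TRAF2/Casp8 KO and WT livers. The share of all genes under 0.05 before adjustment was not counted, so whether these counts exceed it cannot be read. The genes that passed are named although they were chosen after their values were seen. Adcy4, an adenylate cyclase gene, read 7.66, 7.54, 7.64 and 7.65 in RIPK3 triple KO livers against 7.15, 7.03, 6.92 and 6.80 in TRAF2/Casp8 KO livers (log2 0.65 ± 0.12 SE, adjusted p = 0.0333). Relative to RIPK3 triple KO livers, Adcy4 fell in IKKβ triple KO livers (log2 −0.54, adjusted p = 0.0348). Both Adcy4 calls were lost without any RIPK3 triple KO array or IKKβ triple KO replicate 2 or 3, the first also without TRAF2/Casp8 KO replicate 2, 3 or 4 or WT replicate 3 and the second also without IKKβ triple KO replicate 4 (adjusted p up to 0.140).

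Dhrs1, a short-chain dehydrogenase gene, fell by 0.51 in RIPK3 triple KO relative to WT livers (log2 −0.51, adjusted p = 0.00966) and by 0.56 in TRAF2/Casp8 KO relative to WT livers (log2 −0.56, adjusted p = 0.00427). Tgm1, a transglutaminase gene, fell by 0.71 in RIPK3 triple KO relative to WT livers (log2 −0.71, adjusted p = 0.0326), a call that went without replicate 1, 3 or 4 of either group (adjusted p up to 0.0977). Of 38 coding genes between Lats2 and Ripk3, 30 were measured and 0 passed in any of the 6 comparisons by limma, with 0 to 5 under 0.05 before adjustment. Of all genes 0.0372% to 3.31% passed in these comparisons. The Ripk3 deletion was present in every cell of the RIPK3 triple KO mice, and for Ajuba the loss of RIPK3 and chromosome 14 alleles that came with the deleted Ripk3 allele cannot be told apart.

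Amotl2, an angiomotin-like protein that binds YAP at junctions and is induced by it, stood highest in IKKβ triple KO livers. It read 7.19, 6.84, 6.55 and 6.89 there, 6.51, 6.60, 6.41 and 6.27 in RIPK3 triple KO livers and 6.55, 6.68, 6.95 and 6.83 in TRAF2/Casp8 KO livers, against 6.49, 6.63, 6.69 and 6.75 in WT livers. RIPK3 triple KO livers had the lowest mean and overlapped WT and TRAF2/Casp8 KO livers. IKKβ triple KO differed from RIPK3 triple KO livers by 0.42 ± 0.13 SE (adjusted p = 0.123), RIPK3 triple KO from TRAF2/Casp8 KO livers by −0.31 (adjusted p = 0.433) and TRAF2/Casp8 KO from WT livers by 0.11 (adjusted p = 0.763). None of these passed.

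Lats2, a LATS kinase that inhibits YAP and TAZ and is itself induced by YAP, lay at 6.63 to 7.06 in IKKβ triple KO livers, 6.38 to 6.93 in RIPK3 triple KO livers, 6.86 to 7.12 in TRAF2/Casp8 KO livers and 6.85 to 7.09 in WT livers. The 6.38 was 1 liver, RIPK3 triple KO replicate 1, and the other 3 of that group read 6.85 to 6.93. TRAF2/Casp8 KO differed from WT livers by 0.01 (interval −0.26 to 0.27, adjusted p = 0.990), and the differences of the triple KO groups lay between −0.21 and 0.13.

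Yap1, the co-activator itself, showed the smallest spread of means of the 9 genes. It ranged over 7.98 to 8.16 in IKKβ triple KO livers, 8.02 to 8.25 in RIPK3 triple KO livers and 8.14 to 8.34 in TRAF2/Casp8 KO livers, against 8.01 to 8.18 in WT livers. TRAF2/Casp8 KO differed from WT livers by 0.14 (interval −0.03 to 0.30, adjusted p = 0.466), an interval that ends below the 0.69 at which the interval of Ccn1 begins. Wwtr1, which encodes TAZ, ranged over 6.60 to 7.00 in IKKβ triple KO livers, 6.56 to 6.99 in RIPK3 triple KO livers, 6.72 to 7.12 in TRAF2/Casp8 KO livers and 6.46 to 6.87 in WT livers. Its difference between TRAF2/Casp8 KO and WT livers was 0.17 (interval −0.10 to 0.44, adjusted p = 0.613), and all groups overlapped.

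Tead1, a DNA-binding TEAD factor, read 7.64, 7.99, 7.65 and 7.53 in IKKβ triple KO livers, 7.71, 7.75, 7.69 and 7.63 in RIPK3 triple KO livers and 8.02, 7.79, 7.93 and 8.01 in TRAF2/Casp8 KO livers, against 7.31, 7.62, 7.80 and 7.79 in WT livers. TRAF2/Casp8 KO livers were all above RIPK3 triple KO livers, narrowly for replicate 2, and overlapped WT livers. The differences were −0.24 ± 0.12 SE between RIPK3 triple KO and TRAF2/Casp8 KO livers (adjusted p = 0.509) and 0.31 ± 0.12 SE between TRAF2/Casp8 KO and WT livers (adjusted p = 0.223). The second probe set of Tead1 gave −0.04 and 0.12 for these differences.

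Counted by comparison, 2 of the 9 genes passed between TRAF2/Casp8 KO and WT livers, against 2.25% of all probe sets and 3.31% of genes read by their brightest probe set. Both (Ccn1 and Ccn2) rose, against 1.44% of probe sets that rose. All 9 differences were above 0, with a median of 0.31 against −0.01 over all genes, and 3 genes did not overlap between the groups, against 9.25% of probe sets. In RIPK3 triple KO relative to TRAF2/Casp8 KO livers 1 of the 9 passed, against 0.264% of probe sets and 0.329% of genes, and it fell (Ajuba), against 0.132% that fell. All 9 differences were below 0 with a median of −0.31 against 0.00 over all genes, and 3 genes (Ccn1, Ajuba and Tead1) did not overlap, against 6.03%. The limma p before adjustment was under 0.05 for 4 and 5 of the 9 in these comparisons. Both comparisons share the TRAF2/Casp8 KO livers, so the opposite signs of their differences are not separate observations.

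In IKKβ triple KO relative to TRAF2/Casp8 KO livers 0 of the 9 passed, against 0.627% of probe sets and 1.02% of genes. The limma p before adjustment was under 0.05 for 1 of them, 8 of the 9 differences were below 0 and the median was −0.14. The groups overlapped for all 9 genes, where 6.22% of probe sets did not overlap. In IKKβ triple KO relative to WT livers 0 passed, against 0.0197% of probe sets and 0.0372% of genes, with 3 under 0.05 before adjustment (Ccn1, Ccn2 and Ankrd1), and Ankrd1 alone did not overlap, against 3.57%. In RIPK3 triple KO relative to WT livers 1 passed (Ajuba, lower), against 2.38% of probe sets (3.11% of genes) in either direction and 0.894% lower, and it alone did not overlap, against 7.70%. In IKKβ triple KO relative to RIPK3 triple KO livers 1 passed (Ajuba, higher), against 1.59% of probe sets (2.00% of genes) in either direction and 0.503% higher, and it alone did not overlap, against 7.90%.

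**Figure D3:**
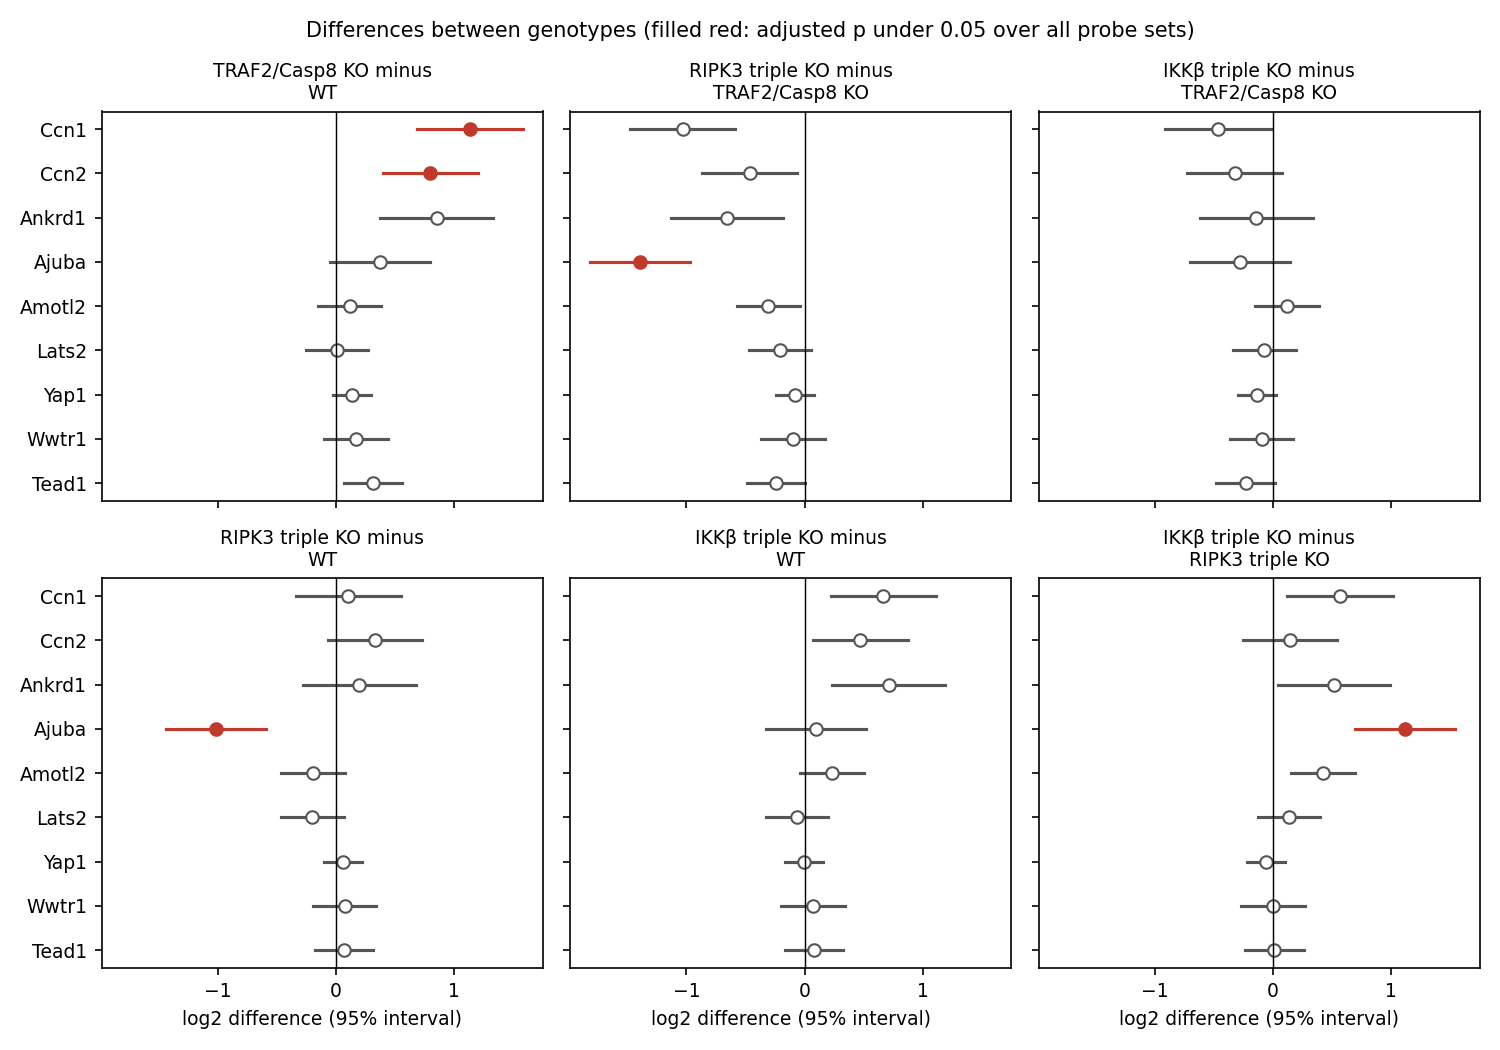
Log2 differences of the 9 genes in the 6 comparisons of genotypes, with the 95% intervals of the limma fit; filled red points passed an adjusted p of 0.05 over all probe sets. Ccn1 (1.13) and Ccn2 (0.80) pass for TRAF2/Casp8 KO minus WT, Ajuba passes in the 3 comparisons that involve RIPK3 triple KO livers (−1.39, −1.02 and 1.11), and the intervals of Yap1, Wwtr1 and Lats2 include 0 in every panel.

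The rest of the pathway was read from 4 further lists, of Hippo kinases and scaffolds (19 of 23 genes measured), upstream and YAP-binding regulators (35 of 40), TEAD factors and co-factors (12 of 14) and other YAP and TAZ target genes (31 of 35). Between TRAF2/Casp8 KO and WT livers, the median of the kinase list was 0.07, against −0.01 over all genes. Before adjustment 8 of its 19 genes were under 0.05, with no share of all genes to set beside this. Past the threshold 1 of the 19 rose and 0 fell, against 3.31% of all genes in either direction. That gene was Mob1b, an activating partner of LATS, at 8.74 to 9.0 in TRAF2/Casp8 KO livers against 7.73 to 8.31 in WT livers (log2 0.72 ± 0.13 SE, adjusted p = 0.00648). Mob1b, alone of the list, also rose in RIPK3 triple KO over WT livers, by 0.62 (adjusted p = 0.0190), where 3.11% of all genes passed. That call needed RIPK3 triple KO replicates 2 and 3 (adjusted p up to 0.0583 without 1 of them). Both Mob1b calls were lost in a fit of only the 2 genotypes compared (0.0545 and 0.108). No kinase-list gene passed in the other 4 comparisons, where 0 to 5 of the 19 were under 0.05 before adjustment and the smallest adjusted p was 0.0618 (Tnik, a MAP4K-family kinase gene, 0.40 in IKKβ triple KO minus RIPK3 triple KO livers).

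Among the 35 upstream and YAP-binding regulators 1 gene passed between TRAF2/Casp8 KO and WT livers, against 3.31% of all genes. It was Amot, which rose. Amot alone of the list also passed, and fell, in each triple KO relative to TRAF2/Casp8 KO livers. There 0.329% (RIPK3 triple KO) and 1.02% (IKKβ triple KO) of all genes passed. Before adjustment 7, 6 and 5 of the 35 were under 0.05 in these comparisons. Amot encodes angiomotin, which like AMOTL2 binds YAP at junctions and the actin cytoskeleton. It lay at 6.68 to 6.96 in IKKβ triple KO livers, 6.64 to 6.95 in RIPK3 triple KO livers and 7.15 to 7.53 in TRAF2/Casp8 KO livers, against 6.47 to 6.86 in WT livers, so that the TRAF2/Casp8 KO livers were above all others. The differences were 0.67 ± 0.12 SE for TRAF2/Casp8 KO minus WT (adjusted p = 0.00527, held with each array left out and under each other setting that could change it), −0.66 for RIPK3 triple KO minus TRAF2/Casp8 KO (0.0274) and −0.59 for IKKβ triple KO minus TRAF2/Casp8 KO (0.0297). The last 2 calls were lost with the replicate block, in a fit of only the 2 genotypes, and without TRAF2/Casp8 KO replicate 1, 2 or 4. The RIPK3 triple KO call was also lost with repeated quantile normalisation and without any 1 of RIPK3 triple KO replicates 1, 2 and 3, and the IKKβ triple KO call without IKKβ triple KO replicate 1 or 4 (adjusted p up to 0.119).

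In RIPK3 triple KO relative to WT livers 1 of the 35 regulators passed, against 3.11% of all genes. It was Stk26, an MST-related kinase gene, which fell by 0.66 (log2 −0.66, adjusted p = 0.04999, just under the threshold). This call was lost without any RIPK3 triple KO or WT array, without TRAF2/Casp8 KO replicate 1 or 4 or without IKKβ triple KO replicate 2, 3 or 4, at an adjusted p of 0.142 or less. No gene of this list passed in the comparisons of IKKβ triple KO with WT or RIPK3 triple KO livers, where 1 and 2 of the 35 were under 0.05 before adjustment. Of the 12 TEAD factors and co-factors 0 passed in any of the 6 comparisons by limma, where 0.0372% to 3.31% of all genes passed. Before adjustment 0 to 3 of them were under 0.05. The smallest adjusted p there was 0.0515, for Tead2, with a difference of −0.45 ± 0.11 SE between RIPK3 triple KO and WT livers.

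Of the 31 other YAP and TAZ target genes, 3 rose and 1 fell in TRAF2/Casp8 KO relative to WT livers, against 3.31% of all genes past the threshold in either direction. The list median was 0.00, against −0.01 over all genes. In IKKβ triple KO relative to TRAF2/Casp8 KO livers 3 fell, against 1.02% of all genes. In RIPK3 triple KO relative to WT livers 2 rose and 3 fell, against 3.11%. In IKKβ triple KO relative to RIPK3 triple KO livers 3 rose and 1 fell, against 2.00%. Before adjustment 11, 10, 12 and 12 of the 31 were under 0.05 in these comparisons, in the order given. Sox9, a transcription factor of bile duct and progenitor cells, lay at 5.59 to 5.96 in IKKβ triple KO livers, 6.57 to 6.81 in RIPK3 triple KO livers and 6.63 to 7.12 in TRAF2/Casp8 KO livers, against 5.18 to 5.80 in WT livers. It rose 2.48-fold in TRAF2/Casp8 KO over WT livers (log2 1.31 ± 0.15 SE, adjusted p = 0.000147) and 2.15-fold in RIPK3 triple KO over WT livers (log2 1.10, adjusted p = 0.00072). It fell in IKKβ triple KO livers relative to TRAF2/Casp8 KO livers (log2 −1.12, adjusted p = 0.00137) and relative to RIPK3 triple KO livers (log2 −0.91, adjusted p = 0.00612). RIPK3 triple KO livers were thus all above WT livers for Sox9 and overlapped them for Ccn1.

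Ccn4, a secreted relative of Ccn1 and Ccn2 first known as a Wnt target, lay at 4.50 to 4.94 in IKKβ triple KO livers, 4.80 to 5.15 in RIPK3 triple KO livers and 5.32 to 5.65 in TRAF2/Casp8 KO livers, against 4.53 to 4.88 in WT livers. It rose by 0.78 in TRAF2/Casp8 KO over WT livers (adjusted p = 0.00206) and fell in IKKβ triple KO relative to TRAF2/Casp8 KO livers (log2 −0.80, adjusted p = 0.0042). Notch2, a receptor needed for bile duct formation, rose by 0.51 in TRAF2/Casp8 KO over WT livers (adjusted p = 0.000656) and fell in IKKβ triple KO relative to TRAF2/Casp8 KO livers (log2 −0.42, adjusted p = 0.00687). These calls of Sox9, Ccn4 and Notch2 held with each array left out and under each other setting that could change them. No setting varied plate column, which cannot be told apart from genotype. Notch2 also rose by 0.30 in RIPK3 triple KO over WT livers (adjusted p = 0.0318), which was lost without any WT array, without RIPK3 triple KO replicate 2, 3 or 4 (adjusted p up to 0.0944), with the replicate block and in a fit of only the 2 genotypes.

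Ccnd1, which encodes cyclin D1 and drives entry into the cell cycle, is counted among YAP targets but fell where Ccn1 rose. It lay at 9.14 to 9.65 in IKKβ triple KO livers, 8.58 to 8.95 in RIPK3 triple KO livers and 8.88 to 9.13 in TRAF2/Casp8 KO livers, against 9.44 to 9.80 in WT livers. Ccnd1 fell in TRAF2/Casp8 KO relative to WT livers (log2 −0.54, adjusted p = 0.0284) and in RIPK3 triple KO relative to WT livers (log2 −0.79, adjusted p = 0.0024), and it was higher in IKKβ triple KO than in RIPK3 triple KO livers (log2 0.64, adjusted p = 0.0168). The first of these was lost without TRAF2/Casp8 KO replicate 1, 2 or 4, without WT replicate 2, 3 or 4 (adjusted p up to 0.0984) or with the replicate block. The last did not hold without IKKβ triple KO replicate 2 or 3 or RIPK3 triple KO replicate 3 (up to 0.0648) or in a fit of only the 2 genotypes. The fall in RIPK3 triple KO relative to WT livers held in all of these.

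The stress-response gene Gadd45b fell in RIPK3 triple KO relative to WT livers (log2 −1.18, adjusted p = 0.0334) and was higher in IKKβ triple KO than in RIPK3 triple KO livers (log2 1.41, adjusted p = 0.0181). Its groups were at 6.53 to 7.55 in IKKβ triple KO, 5.34 to 5.79 in RIPK3 triple KO and 5.20 to 6.38 in TRAF2/Casp8 KO livers, against 6.28 to 7.23 in WT livers, so RIPK3 triple KO and TRAF2/Casp8 KO livers overlapped. Nuak2, an AMPK-related kinase gene, had the same 2 calls (log2 −0.44, adjusted p = 0.0335, and log2 0.48, adjusted p = 0.0292). The first Gadd45b call was lost without WT replicate 2 or 4 or RIPK3 triple KO replicate 1, 2 or 3, with an adjusted p of at most 0.110. The second call was lost without IKKβ triple KO replicate 2 or RIPK3 triple KO replicate 2 (up to 0.0577). Those of Nuak2 both went without any of RIPK3 triple KO replicates 1, 3 and 4, without WT replicate 2, 3 or 4 for the first and IKKβ triple KO replicate 2, 3 or 4 for the second (up to 0.105 and 0.0942), and in a fit of only the 2 genotypes. No gene of the list passed between RIPK3 triple KO and TRAF2/Casp8 KO livers or between IKKβ triple KO and WT livers, where 6 and 1 of the 31 were under 0.05 before adjustment.

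**Figure D4:**
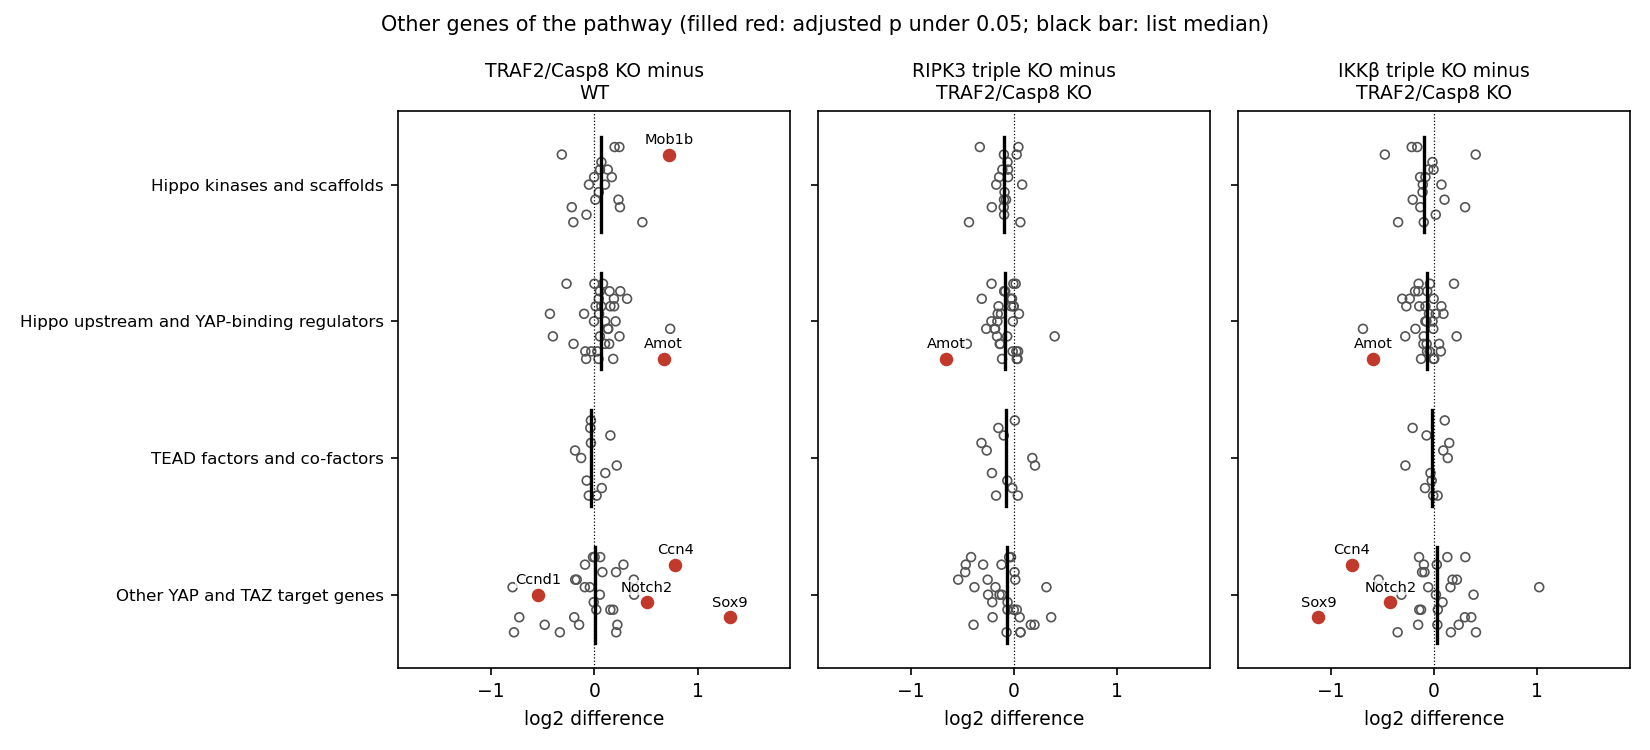
Log2 differences of the genes of 4 further pathway lists in 3 comparisons; each circle is 1 gene, filled red and named where the adjusted p was under 0.05, and the black bar is the list median. Amot, Mob1b, Ccn4, Notch2 and Sox9 lie right of 0 and Ccnd1 left of 0 for TRAF2/Casp8 KO minus WT, and Amot (−0.59), Ccn4 (−0.80), Notch2 (−0.42) and Sox9 (−1.12) lie left of 0 for IKKβ triple KO minus TRAF2/Casp8 KO.

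Ccn1, Ccn2 and Ankrd1 also respond to SRF with its co-factor MRTF, a pathway that reads actin. A list of 18 other genes of that pathway, all measured, held further targets together with Srf, Mrtfa and Mrtfb themselves. Its median was 0.20 in TRAF2/Casp8 KO over WT livers, against −0.01 over all genes. Past the threshold 1 of the 18 rose there and 0 fell, against 3.31% of all genes in either direction. Before adjustment 4 of the 18 were under 0.05 there. The gene that rose was Vcl, which encodes the adhesion protein vinculin (log2 0.45, adjusted p = 0.0458). Its call was lost without any WT array, without TRAF2/Casp8 KO replicate 1, 3 or 4, RIPK3 triple KO replicate 1, 2 or 4 or IKKβ triple KO replicate 3 or 4 (adjusted p up to 0.145), with the replicate block, with arrays centred on their median and in a fit of only the 2 genotypes. In the other 5 comparisons 0 of the 18 passed by limma, where 0.0372% to 3.11% of all genes passed. Before adjustment 1 or 2 of the 18 were under 0.05 there, and the smallest adjusted p was 0.0836 (Mrtfb in RIPK3 triple KO against WT livers).

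In whole liver, fewer cells of a type and less RNA per cell cannot be told apart, and Ccn1, Ccn2 and Ankrd1 are made by several cell types, so marker lists were read beside them. Cholangiocyte markers moved beside Ccn1: 4 of 8 measured rose in TRAF2/Casp8 KO over WT livers (Sox9, Cldn7, Cdh1 and Epcam), against 3.31% of all genes past the threshold in either direction. Sox9 is also in the list of other YAP and TAZ target genes, so its calls are counted in both lists. The list's mean log2 signal per array was 5.80 to 6.29 in IKKβ triple KO, 6.40 to 6.48 in RIPK3 triple KO and 6.46 to 6.61 in TRAF2/Casp8 KO livers, against 5.77 to 6.08 in WT livers. The defining marker Krt19 overlapped, at 5.13 to 5.67 in TRAF2/Casp8 KO livers against 5.03 to 6.29 in WT livers. In RIPK3 triple KO relative to TRAF2/Casp8 KO livers 1 of the 8 fell, against 0.329% of all genes in either direction. In IKKβ triple KO relative to TRAF2/Casp8 KO livers 2 fell (Sox9 and Cldn7), against 1.02%. Cldn7, which encodes a tight junction claudin, lay at 4.99 to 5.18 in IKKβ triple KO, 4.95 to 5.45 in RIPK3 triple KO and 5.74 to 6.43 in TRAF2/Casp8 KO livers, against 4.59 to 5.14 in WT livers. Like Ccn1, it was higher in every TRAF2/Casp8 KO liver than in every RIPK3 triple KO and WT liver (2.0-fold lower in RIPK3 triple KO than in TRAF2/Casp8 KO, adjusted p = 0.0117). That call did not hold without TRAF2/Casp8 KO replicate 4 or RIPK3 triple KO replicate 3, nor in a fit of only the 2 genotypes (adjusted p up to 0.101). Over WT livers 2 of the 8 rose in RIPK3 triple KO livers (Sox9, and Epcam by 0.67 with an adjusted p of 0.0461), against 3.11% of all genes in either direction. The list mean was above WT there while Ccn1 overlapped WT. The Epcam call was lost without any TRAF2/Casp8 KO array, without replicate 1, 2 or 3 of RIPK3 triple KO or WT, without IKKβ triple KO replicate 3 or 4 and under 3 other settings (adjusted p up to 0.168). Its rise in TRAF2/Casp8 KO over WT livers did not hold without TRAF2/Casp8 KO replicate 1 or WT replicate 3 (up to 0.0631). Whether bile duct cells had a part in the Ccn1 and Ccn2 differences was not tested.

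Of 10 stellate cell and fibroblast markers 0 passed in any comparison by limma (0 to 4 under 0.05 before adjustment), and their mean was 8.81 to 8.93 in TRAF2/Casp8 KO livers against 8.47 to 8.99 in WT livers. Likewise 0 of 10 endothelial, 0 of 10 macrophage, 0 of 6 erythroid and 0 of 4 megakaryocyte markers passed in any comparison, with at most 2 of a list under 0.05 before adjustment. Over the 6 comparisons 0.0372% to 3.31% of all genes passed, so a count of 0 in lists this short says little. In TRAF2/Casp8 KO relative to WT livers all 6 erythroid and all 4 megakaryocyte differences were below 0, with medians of −0.47 and −0.57. Of 7 mesothelial markers 1, Cd200, passed in 4 comparisons. It rose in TRAF2/Casp8 KO and in RIPK3 triple KO over WT livers, against 3.31% and 3.11% of all genes past the threshold in either direction. The list as a whole did not rise there: 5 and 4 of the 7 differences were below 0, with medians of −0.13 and −0.08. The Cd200 call of RIPK3 triple KO over WT livers did not hold without RIPK3 triple KO replicate 1 or WT replicate 2 (adjusted p up to 0.0574). Beside the fall of Ajuba, the only marker past the threshold in RIPK3 triple KO relative to TRAF2/Casp8 KO livers was Cldn7, where 0.329% of all genes passed. Relative to WT livers they were Sox9, Epcam and Cd200, where 3.11% of all genes passed. Erythroid markers had median differences of −0.39 and −0.65 in these comparisons, with 0 and 2 of 6 under 0.05 before adjustment. Of the markers of neutrophils and their precursors 0 of 9 passed by limma. Before adjustment 5 and 8 of them were under 0.05 in RIPK3 triple KO relative to TRAF2/Casp8 KO and to WT livers, with no share of all genes to set beside this. The median differences of these markers were −0.98 and −1.20. Their mean per array was 8.91 to 9.98 in IKKβ triple KO and 8.62 to 9.98 in TRAF2/Casp8 KO livers, against 8.92 to 10.49 in WT livers. In RIPK3 triple KO livers it was 7.40, 7.97, 8.18 and 9.23, so that only replicate 4 overlapped the other groups. The part of these cell types in the fall of Ajuba was not tested. Albumin, the defining hepatocyte product, stayed within 12.94 to 13.48 in all 16 livers. Its mean was at percentile 99.99 of all probe sets, and the highest value of the data was 13.65. So near the top of the scale, it may not show a change in hepatocyte share. Of 9 hepatocyte markers 1 fell in TRAF2/Casp8 KO relative to WT livers (Asgr1, log2 −0.41, adjusted p = 0.0422), against 3.31% of all genes in either direction. This call was lost without any IKKβ triple KO array, RIPK3 triple KO replicate 1, TRAF2/Casp8 KO replicate 1, 3 or 4 or WT replicate 2, 3 or 4 (adjusted p up to 0.139).

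The genes whose levels most resembled those of the 2 genes past the F test were found by Pearson's r over the 16 arrays, given as a description of livers that share genotypes and plate positions. For Ccn1 they were Sytl5 (r = 0.922), Tuft1 (0.906) and Tmem170 (0.905). All 3 had their highest mean in TRAF2/Casp8 KO livers, as Ccn1 did, which their choice by r makes likely. Sytl5 averaged 6.24 ± 0.40 in IKKβ triple KO, 5.88 ± 0.22 in RIPK3 triple KO and 6.60 ± 0.26 in TRAF2/Casp8 KO livers, against 5.74 ± 0.41 in WT livers (SD, n = 4). For Ajuba they were Chka (r = 0.920), Cks2 (0.898) and Mmp14 (0.889), all 3 lowest in RIPK3 triple KO livers, which their choice by r again makes likely. Chka, which encodes choline kinase, averaged 8.65 ± 0.13 in IKKβ triple KO, 7.90 ± 0.10 in RIPK3 triple KO and 8.67 ± 0.19 in TRAF2/Casp8 KO livers, against 8.46 ± 0.30 in WT livers.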

How the data were processed

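RNA of 16 livers was hybridised to one-colour Affymetrix whole-transcript arrays, per the labels' protocols. The values are on a log2 scale, as deposited by the authors, who summarised them by RMA per the submitters' processing notes; software and probe set definition are not stated there. They span 0.89 to 13.65, which gives the log base. All 16 value columns entered, 0 stayed out, and nothing was normalised or filtered again. Of 35556 probe sets, 21218 have 1 gene symbol, 1881 several and 12457 none. The number of arrays limits the precision.

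Genotypes were compared with limma 3.58.1 (R 4.3.3; lmFit, then eBayes with no trend) in 1 model of the 4 genotypes, by 6 two-sided pairwise contrasts and a moderated F test. Benjamini-Hochberg adjustment covered every probe set, at 0.05, and each adjusted p in the text comes from limma. The procedure was tested on simulated data. Replicates are separate mice by their label numbers. The 9 genes and 14 lists (188 of 213 genes measured) were chosen with earlier results of these data known. Named genes were the 9, the 4 targeted genes, up to 3 a direction past the threshold per pathway list and comparison (else up to 2 of smallest p, as values), and the 3 most like each gene past the F test. Promoters are RefSeq windows (GRCm38.p6) matched by symbol; gene order is from the RefSeq gene table. Other settings tried were a variance trend with robust moderation, a fit of just the compared genotypes, a filter on dim probe sets, repeated quantile normalisation, median centring, array weights, blocks for replicate number (fixed) and plate row (random), the mean of a gene's probe sets, and each array left out. The mean of probe sets was taken for the 9 genes only, of which Tead1 alone has several. Counts under 0.05 before adjustment are given without the share over all genes, which was not counted. Figures used matplotlib 3.10.9.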

Additional observations from a re-analysis of the deposited data

Results flagged for a closer look

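Among 36 groups of 4 livers (9 genes in 4 genotypes), 2 had 1 liver far from the other 3 by Dixon's criterion, where chance gives about 1 in 20. Ajuba read 5.97 in IKKβ triple KO replicate 1, against 6.62 to 6.75 in the other 3 livers of that genotype. Lats2 read 6.38 in RIPK3 triple KO replicate 1, against 6.85 to 6.93 in the other 3.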

How the results depend on the processing

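Of the counts of the 9 genes past the threshold, that for RIPK3 triple KO against TRAF2/Casp8 KO livers was 1 and became 2 with the filter on dim probe sets or with array weights, as Ccn1 joined (adjusted p = 0.0455 and 0.0231). That for TRAF2/Casp8 KO against WT livers was 2 and became 1 with the replicate block (Ccn2 at 0.0573) and 3 with that filter or array weights, as Ankrd1 joined (0.0477 and 0.0445). Of 24 same-numbered pairs of arrays, 4 had deviations that correlated over 0.1, and 3 of these 4 were IKKβ triple KO with TRAF2/Casp8 KO arrays, which share a plate row (−0.02 to 0.11 over their 4 pairs). RIPK3 triple KO and WT arrays of the same number also share a row (−0.10 to 0.02). Since not every pair of any 2 groups was over 0.1, the numbers were not taken to pair the mice. The replicate block changed no other call of the 9 genes, and the plate row as a random block changed none. Leaving out each array gave 1 to 2 for TRAF2/Casp8 KO against WT, 1 to 2 for RIPK3 triple KO against TRAF2/Casp8 KO, 0 to 1 for RIPK3 triple KO against WT, 1 to 3 for the F test, 1 in each case for IKKβ triple KO against RIPK3 triple KO, and 0 in each case for IKKβ triple KO against TRAF2/Casp8 KO and WT. No called difference changed sign under any setting. Over all probe sets, a fit of only the 2 genotypes lowered the counts most, to 458 against 800 for TRAF2/Casp8 KO over WT, 40 against 94 for RIPK3 triple KO over TRAF2/Casp8 KO, 109 against 223 for IKKβ triple KO over TRAF2/Casp8 KO, 328 against 845 for RIPK3 triple KO over WT, 1 against 7 for IKKβ triple KO over WT and 232 against 567 for IKKβ triple KO over RIPK3 triple KO. Array weights raised the count to 1594 for TRAF2/Casp8 KO over WT, 509 for IKKβ triple KO over TRAF2/Casp8 KO, 20 for IKKβ triple KO over WT, 875 for IKKβ triple KO over RIPK3 triple KO and 1651 against 1008 for the F test. The dim filter gave 13 for IKKβ triple KO over WT, and the replicate block gave 62 for RIPK3 triple KO over TRAF2/Casp8 KO.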
